A study of Mus musculus with 6 samples.

Results

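Membrane transporters for glucose, amino acids, monocarboxylates and fatty acids were followed in plasmacytoid dendritic cells (pDCs) from mice labelled IRF8 KO. The genes were taken by name: every gene of the solute carrier families Slc1, Slc2, Slc3, Slc7, Slc16, Slc27, Slc36, Slc38 and Slc43 that a probe set listed under its symbol alone, with the probe set of the highest mean over the 6 arrays standing for the gene. This gave 73 genes out of 19937 measured, from 76 probe sets, and each of the 73 chosen probe sets shared a RefSeq transcript with its gene.

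The series compared splenic pDCs collected as B220+ SiglecH+ cells from IRF8 KO mice (3 arrays) and IRF8 WT mice (3 arrays) on Affymetrix arrays. The sources used here do not give the mutant allele, the strain, the age and sex of the mice, any Cre driver, or whether arrays stand for separate animals. The p-values thus measure the spread between these arrays, which may be technical. The series title asks how IRF8 governs the last steps of pDC differentiation and holds MYC in check. Values are log2 levels of the authors' deposited table, so a difference of 1 is a doubling, and levels of different genes are not set against each other.

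A cell cannot take up glucose, amino acids or charged fatty acids across its membrane without carriers. Slc2 proteins (GLUTs) carry glucose down its gradient, Slc16 proteins (MCTs) carry lactate and related acids, and Slc27 proteins (FATPs) trap fatty acids by joining them to coenzyme A. Amino acids enter through Slc1, Slc7, Slc38 and Slc43 carriers, several Slc7 proteins reach the surface only as pairs with the glycoproteins Slc3a1 or Slc3a2, and Slc36a1, Slc36a4 and Slc38a9 act on internal membranes where amino acids are sensed for the growth kinase mTORC1. Resting pDCs are quiescent, and on activation dendritic cells and lymphocytes are known to raise glucose and amino acid uptake. MYC is known in lymphocytes to raise several of these carriers, among them Slc1a5, Slc2a1, Slc7a5 and Slc16a1.

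Irf8 itself measured 10.15, 10.49 and 10.79 in the KO arrays, against 10.21, 9.97 and 10.24 in the WT arrays. It was not lower in the arrays labelled KO. The altered stretch of the gene is unstated, and a probe set lying elsewhere would check nothing, so the genotype of each array is taken from its label. Of the 10 pDC markers, 9 were measured, 3 were called lower and 2 had a positive difference. Their summed linear level was 25474 to 28041 in KO arrays and 28649 to 32402 in WT arrays. Both arrays numbered 1 stood apart from the other 4 on the second principal component. Neutrophil granule markers (9 of 9 measured, 0 called, 9 with a positive difference) summed to 16936, 1670 and 583 in KO replicates 1 to 3 and to 1453, 327 and 250 in WT replicates 1 to 3. Cell cycle genes (23 of 24 measured, 2 called higher, 23 with a positive difference) summed to 8630, 5071 and 4957 in KO replicates 1 to 3, against 3210 to 3348 in WT arrays. Macrophage and monocyte markers (9 of 10 measured, 2 called lower, 2 with a positive difference) summed to 2078 to 2255 in KO and 3753 to 3874 in WT. Plasma cell markers (5 of 5 measured, 2 called higher, 3 with a positive difference) summed to 1259 to 2278 in KO and 725 to 1158 in WT. Of the B cell markers (6 of 7 measured) 2 were called higher, with sums of 452 to 481 in KO and 384 to 451 in WT. Only 3 of these 6 had a positive difference (median 0.12). Of the T cell markers (5 of 6 measured) 1 was called higher and 2 had a positive difference. Their sums were 1051 to 1339 in KO and 740 to 973 in WT. Of the 5 NK cell and 2 erythroid markers measured 0 were called. Of the 6 conventional dendritic cell markers measured 1 was called higher and 1 lower. Of the interferon-stimulated genes (17 of 20 measured) 9 were called higher, with sums of 7991 to 9265 in KO and 2631 to 2894 in WT. Beside these counts, 2.30% of all genes were called higher and 2.08% lower. No deposited value was 0, and the lowest was 1.37. In bulk arrays fewer cells of a type and less RNA per cell cannot be told apart.

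Most transporter genes passed the test in neither direction. By limma with Benjamini-Hochberg adjustment over all genes, at an adjusted p under 0.05, 3 were higher in KO pDCs (Slc27a2, Slc43a3 and Slc38a2), 1 was lower (Slc36a4) and 69 were not called. These 4 calls are 5.48% of the 73 genes, and among all 19937 genes the test called 4.38%, 2.30% higher and 2.08% lower, so the transporters as a set were called about as often as any genes. The 3 KO values lay wholly above or below the 3 WT values for 13 transporter genes (17.8%), against 20.4% of all genes. The median difference was -0.01 log2 units over the transporters and -0.04 over all genes. For 66 of the 73 genes (90.4%) the 95% interval of the difference lay within 1 log2 unit of 0 on either side, against 88.8% of all genes. Its median half-width was 0.34, against 0.33 over all genes. An unadjusted p under 0.05, the looser count given below for families and lists, was reached by 10 of the 73 transporters and by 3203 of all genes (16.1%).

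**Figure D1:**
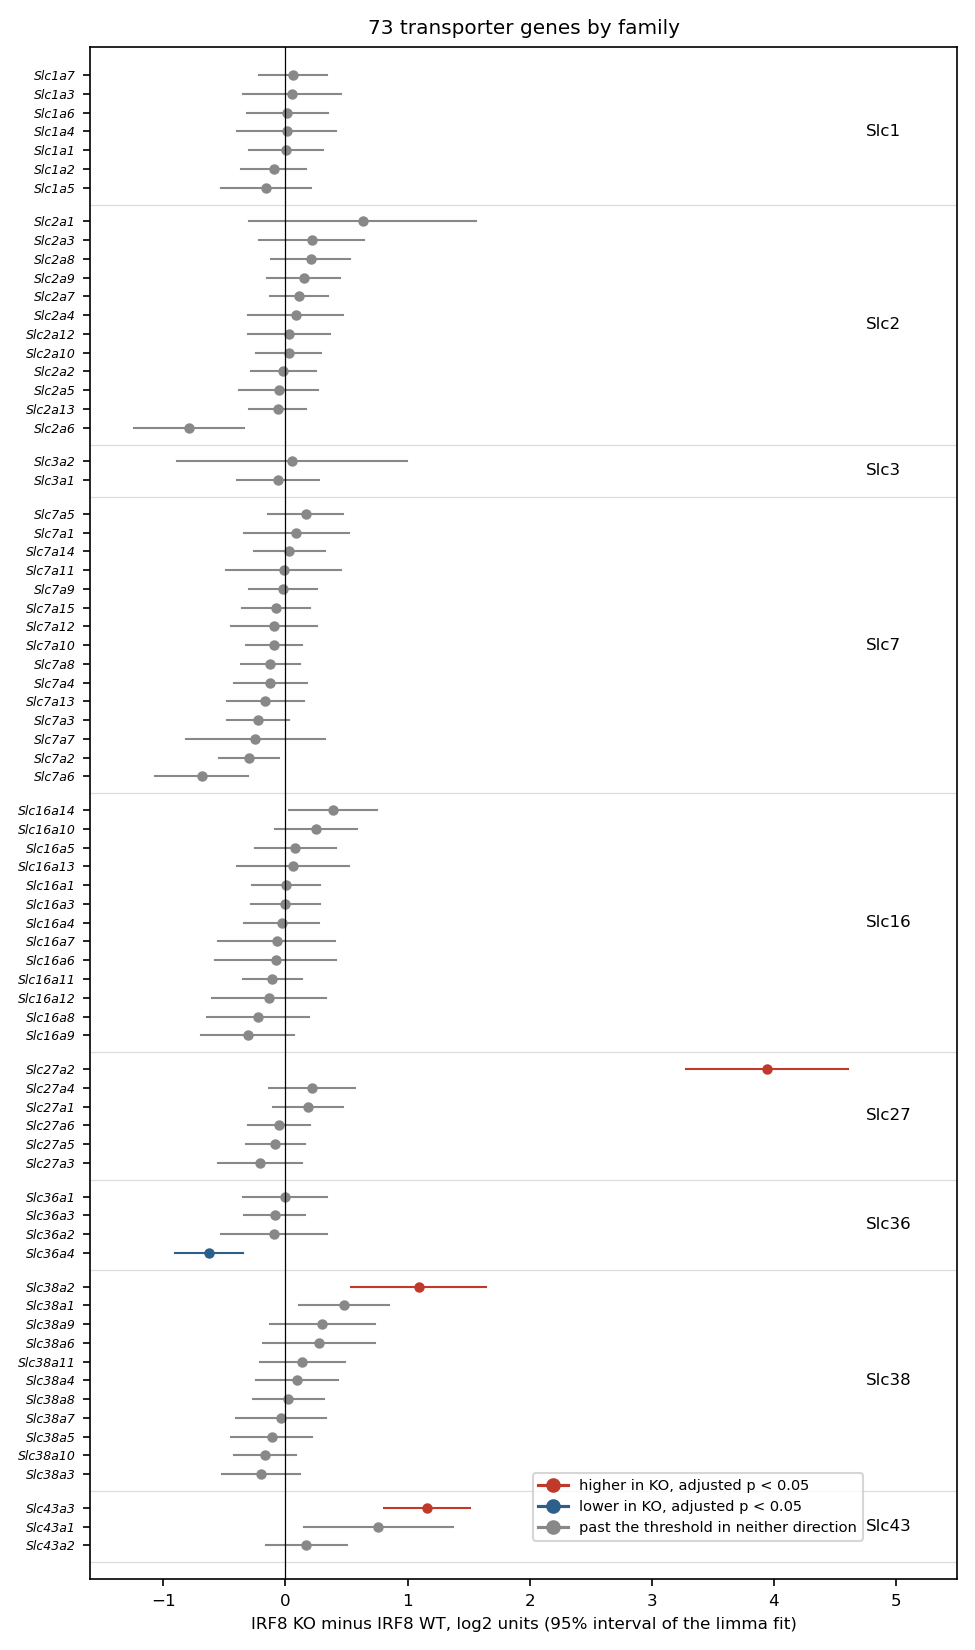
Difference of each of the 73 transporter genes, IRF8 KO minus IRF8 WT in log2 units, with the 95% interval of the limma fit, grouped by family from top to bottom. Slc27a2 stands apart at 3.94, Slc43a3 and Slc38a2 lie near 1, Slc36a4 is the single called gene below 0, and the uncalled genes lie between -0.79 and 0.76.

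The fatty acid transporter family held the largest difference of the 73. Slc27a2 encodes FATP2, which takes up fatty acids and activates very long chains as coenzyme A esters. Its level was 9.0, 7.90 and 7.88 in KO replicates 1 to 3, against 4.36, 4.29 and 4.31 in WT replicates 1 to 3. All 3 KO arrays stood far above all WT arrays, and KO replicate 1 was the highest. The means were 8.26 ± 0.64 in KO and 4.32 ± 0.03 in WT (SD, n = 3 each). By limma they differed by 3.94 log2 units (SE 0.29, adjusted p = 0.000412), and exact permutation of the 6 arrays gave p = 0.10, its minimum with 3 a group. Because the WT level lay below the 25th percentile of all genes' mean levels, 4.58, and no background level was analysed here, the difference is given in log2 units and may understate the change.

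KO replicate 1, where Slc27a2 was highest, was also the array with the highest neutrophil and cell cycle sums. Without that array the Slc27a2 difference was 3.57 (limma adjusted p = 1.43e-05). The adjusted p stayed between 1.43e-05 and 0.00552 under all 15 alternatives tried. The part of the neutrophil and cell cycle signal in this difference was not tested.

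The other 5 fatty acid transporters were not called, and their differences ran from -0.21 to 0.22. Slc27a1 (FATP1), linked in mouse to insulin-driven fatty acid uptake in fat and muscle, measured 7.30, 7.50 and 7.41 in KO and 7.36, 7.05 and 7.24 in WT. Its difference was 0.19 with a 95% interval of -0.10 to 0.47. Slc27a4 (FATP4), a widely expressed acyl-CoA synthetase, measured 6.25, 5.87 and 5.81 in KO and 5.92, 5.73 and 5.63 in WT, a difference of 0.22 (95% interval -0.14 to 0.57).

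The sequence before the transcription start is shown for the called genes that have a window in RefSeq's promoter table (build GRCm38.p6), so that the letters upstream of the genes that moved can be read. The window holds the 250 bases before the start. It lies at chr2:126552774-126553023, plus strand for Slc27a2, at chr15:96699729-96699978, minus strand for Slc38a2 and at chr9:15709488-15709737, plus strand for Slc36a4. The 3 windows hold 64%, 72% and 66% G and C in that order.
Slc27a2: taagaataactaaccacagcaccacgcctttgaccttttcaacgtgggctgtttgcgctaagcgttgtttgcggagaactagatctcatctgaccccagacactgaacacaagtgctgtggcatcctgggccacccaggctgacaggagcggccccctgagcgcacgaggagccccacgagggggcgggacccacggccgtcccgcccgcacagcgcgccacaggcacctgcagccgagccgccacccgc
Slc38a2: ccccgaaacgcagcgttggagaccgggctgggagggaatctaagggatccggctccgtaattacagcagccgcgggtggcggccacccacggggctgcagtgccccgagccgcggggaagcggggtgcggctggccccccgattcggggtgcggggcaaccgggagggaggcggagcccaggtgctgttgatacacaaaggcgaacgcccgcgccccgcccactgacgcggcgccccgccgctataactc
Slc36a4: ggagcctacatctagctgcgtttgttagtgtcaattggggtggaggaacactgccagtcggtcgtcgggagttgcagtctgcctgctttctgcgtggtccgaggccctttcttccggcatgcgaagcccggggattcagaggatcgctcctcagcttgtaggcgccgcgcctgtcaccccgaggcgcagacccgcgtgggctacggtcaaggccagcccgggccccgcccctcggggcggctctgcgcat
None of 4 motifs searched on both strands was found in them: the E-box CACGTG bound by MYC and MAX, the interferon response element (GAAA and GAAA with any 2 bases between), the composite ETS and IRF element (GGAA and GAAA with any 2 bases between), and the amino acid response element TGATGNAAN bound by ATF4. Matches of both elements that hold GAAA can overlap. No match says only that these letters are absent from these windows.

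In the Slc43 family, all 3 measured genes had a positive difference and 1 passed the test. Slc43a3, known as a purine nucleobase transporter and so unlike its amino acid carrying relatives, measured 8.86, 8.38 and 8.43 in KO, against 7.44, 7.30 and 7.44 in WT. Every KO array lay above every WT array, with KO replicate 1 again the highest. The means were 8.56 ± 0.26 in KO and 7.40 ± 0.08 in WT (SD, n = 3 each), so Slc43a3 rose 2.24-fold (log2 difference 1.16, SE 0.15, limma adjusted p = 0.00604). It kept an adjusted p of at most 0.0319 under all 15 alternatives, and its difference without KO replicate 1 was 1.01.

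Slc43a1 (LAT3), a carrier of branched-chain and other large neutral amino acids, measured 6.93, 6.10 and 5.84 in KO and 5.62, 5.39 and 5.57 in WT. The KO arrays lay above the WT arrays and spread over more than 1 log2 unit. The difference of 0.76 did not pass the test (SE 0.26, limma adjusted p = 0.196), and KO replicate 1, with the highest neutrophil and cell cycle sums, held the highest value. Slc43a2 (LAT4), of the same substrate class, differed by 0.17 (adjusted p = 0.658, 95% interval -0.16 to 0.51).

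Sodium-coupled neutral amino acid transporters of the Slc38 family had 1 rise among 11 measured genes. Slc38a2 (SNAT2), a glutamine and alanine carrier that cells induce when amino acids run short, measured 9.62, 10.28 and 10.00 in KO, against 8.72, 8.58 and 9.33 in WT. The groups did not overlap, with KO replicate 1 and WT replicate 3 the nearest to each other. Slc38a2 rose 2.13-fold (log2 difference 1.09, SE 0.24, limma adjusted p = 0.0481). This call lay close to the threshold. It was lost without KO replicate 2 (adjusted p = 0.171), KO replicate 3 (0.151), WT replicate 1 (0.139) or WT replicate 2 (0.158), and with arrays centred on their medians (0.0537).

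Slc38a1 (SNAT1), a glutamine carrier of lymphoid and neural cells, measured 10.55, 10.98 and 11.07 in KO and 10.26, 10.43 and 10.48 in WT. Its KO arrays all lay above WT, with KO replicate 1 the nearest to them, and the difference of 0.48 did not pass the test (SE 0.16, limma adjusted p = 0.176). A second probe set of Slc38a1 measured 8.85, 9.43 and 9.59 in KO and 8.60, 8.66 and 9.09 in WT, a difference of 0.51 (limma adjusted p = 0.331 over all probe sets with 1 symbol). Slc38a9, the lysosomal arginine sensor that signals to mTORC1, measured 8.11, 8.68 and 8.81 in KO and 8.27, 8.17 and 8.24 in WT. KO replicate 1 lay below all WT arrays and the other 2 KO arrays above them (difference 0.30, adjusted p = 0.509). On its second probe set the difference was 0.06 (adjusted p = 0.869). The other 8 genes of the family were not called, with the lowest difference at -0.20.

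Among the proton-coupled Slc36 transporters, 1 of 4 fell. Slc36a4 (PAT4), a high-affinity carrier of proline and tryptophan tied in cell lines to mTORC1 activity, measured 5.96, 5.96 and 5.98 in KO, against 6.41, 6.60 and 6.76 in WT. The KO values were nearly equal and all lay below the WT values. Slc36a4 was 1.54-fold lower in KO (log2 difference -0.63, SE 0.12, limma adjusted p = 0.0301). The call was lost without KO replicate 2 (adjusted p = 0.122), KO replicate 3 (0.108), WT replicate 2 (0.0987) or WT replicate 3 (0.0895). Slc36a1 (PAT1), which exports small amino acids from lysosomes, measured 6.90, 6.61 and 6.99 in KO and 6.72, 7.05 and 6.75 in WT, a difference of -0.01 (95% interval -0.35 to 0.34).

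**Figure D2:**
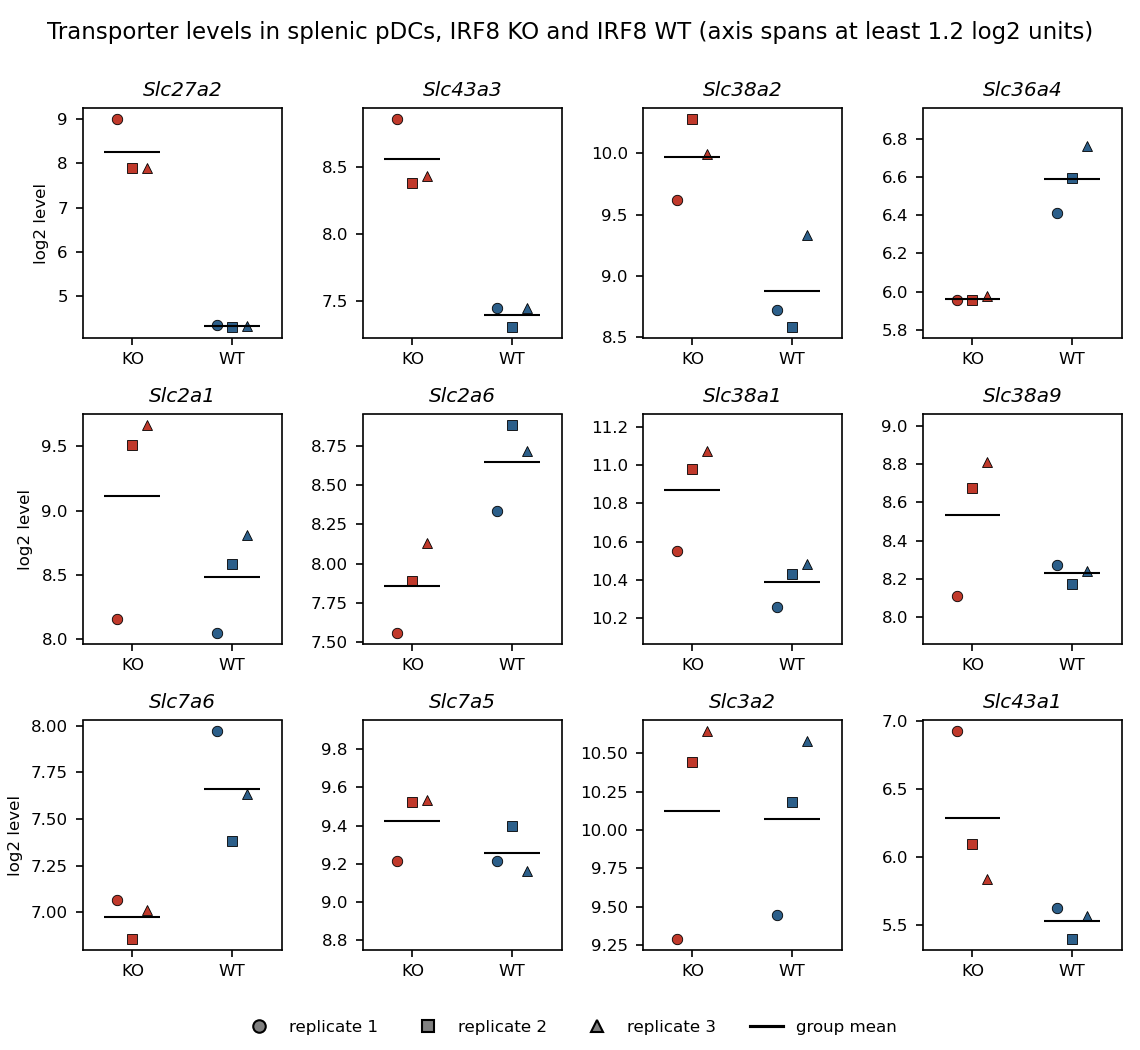
Log2 levels of 12 transporter genes in the 3 IRF8 KO arrays (left in each panel) and the 3 IRF8 WT arrays (right), with marker shapes for replicate numbers and a line at each group mean. Slc27a2, Slc43a3, Slc38a2 and Slc36a4 in the top row passed the test, and in the panels of Slc2a1 and Slc3a2 the array numbered 1 is the lowest of both genotypes.

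Glucose transporters of the Slc2 family had 0 calls among 12 measured genes by limma, with 1 of the 12 at an unadjusted p under 0.05. Slc2a1 (GLUT1), the main glucose carrier of dividing and activated leukocytes, measured 8.16, 9.51 and 9.67 in KO, against 8.04, 8.58 and 8.81 in WT. KO replicates 2 and 3 stood above all WT arrays, and KO replicate 1 lay among the WT values. The difference was 0.63 with a wide 95% interval of -0.30 to 1.56 (limma adjusted p = 0.526). Without KO replicate 1 it was 1.11 and passed the test (adjusted p = 0.0274), and with both arrays numbered 1 left out it was 0.89 (adjusted p = 0.0180). These were the only 2 of the 15 alternatives in which Slc2a1 passed. The difference shrank to 0.43 without KO replicate 2 (limma adjusted p = 0.828), 0.35 without KO replicate 3 (0.868) and 0.41 without WT replicate 1 (0.761). Without KO replicate 1 the test called 6 transporters higher and 1 lower, beside 7.52% of all genes, and with both arrays numbered 1 left out 4 higher and 2 lower, beside 6.93% of all genes.

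Slc2a6 (GLUT6), a glucose carrier of internal membranes that inflammatory stimuli induce in macrophages, pointed the other way. Its level was 7.55, 7.89 and 8.13 in KO and 8.34, 8.88 and 8.72 in WT, with no overlap. The difference of -0.79 fell short of the threshold (SE 0.19, limma adjusted p = 0.0739), and passed it with both arrays numbered 1 left out (-0.79, adjusted p = 0.0284) and with quantile normalization (-0.85, adjusted p = 0.0488). With a replicate block it passed as well (adjusted p = 0.0151), so Slc2a6 passed in 3 of the 15 alternatives. Its highest adjusted p was 0.222, without WT replicate 2. The macrophage and monocyte marker sum was lower in all KO arrays too, and its part in this difference was not tested. Slc2a3 (GLUT3), a high-affinity glucose carrier, measured 7.32, 7.92 and 7.77 in KO and 7.67, 7.24 and 7.45 in WT, a difference of 0.21 (95% interval -0.22 to 0.65). The remaining 9 glucose and polyol carriers, among them the insulin-responsive, fructose and urate transporters, were not called.

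None of the 15 Slc7 genes and neither Slc3 gene was called by limma, and 2 of the Slc7 genes had an unadjusted p under 0.05. Slc3a2, the CD98 heavy chain that carries Slc7 partners to the surface, measured 9.29, 10.45 and 10.65 in KO and 9.45, 10.18 and 10.58 in WT. The spread within each genotype was far larger than the difference of 0.06 (95% interval -0.89 to 1.00), and the array numbered 1 was the lowest of each genotype. Slc7a5 (LAT1), its partner for leucine and other large neutral amino acids, measured 9.21, 9.52 and 9.54 in KO and 9.22, 9.40 and 9.16 in WT. Its difference was 0.17 with a 95% interval of -0.14 to 0.47, so a doubling of its level is outside the interval.

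Slc7a6 (y+LAT2), another Slc3a2 partner that exchanges arginine for glutamine, measured 7.06, 6.85 and 7.01 in KO, against 7.97, 7.38 and 7.63 in WT. All KO values lay below all WT values, and the difference of -0.69 narrowly missed the threshold (SE 0.16, limma adjusted p = 0.0657). With array weights the adjusted p was 0.0323 and with a replicate block 0.0243, the only 2 of the 15 alternatives in which Slc7a6 passed. Its highest adjusted p was 0.231, without KO replicate 2. Slc7a7 (y+LAT1), of the same substrate class, differed by -0.25 with overlapping groups (adjusted p = 0.719). Slc7a1 (CAT1), the general arginine and lysine carrier, measured 7.56, 7.28 and 7.61 in KO and 7.02, 7.54 and 7.63 in WT, a difference of 0.09 (95% interval -0.34 to 0.52). Slc3a1, the heavy chain of kidney and gut cystine carriers, differed by -0.06 (95% interval -0.39 to 0.28).

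Slc7a11 (xCT), the cystine and glutamate exchanger that feeds glutathione synthesis, measured 3.32, 3.60 and 3.03 in KO and 3.23, 3.08 and 3.68 in WT. Slc7a8 (LAT2) measured 4.15, 3.95 and 4.03 in KO and 4.17, 4.14 and 4.19 in WT. Both genes gave low signals in both genotypes, where a change would be hard to see, and 18 of the 73 transporters had both group means below the 25th percentile of all genes. Across the Slc7 family 12 of 15 differences were negative, with a median of -0.10 log2 units, and among all genes 58.2% were negative. The Slc38 family had 7 of 11 positive and a median of 0.09.

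No gene of the Slc1 or Slc16 family passed the test. The 7 Slc1 genes, which hold the glutamate carriers and the neutral amino acid exchangers Slc1a4 and Slc1a5, differed by -0.16 to 0.06, and 0 were called by limma or reached an unadjusted p under 0.05. Slc1a5 (ASCT2), a main route for glutamine into activated lymphocytes, measured 8.84, 8.42 and 8.61 in KO and 8.54, 8.90 and 8.92 in WT. Its difference of -0.16 had a 95% interval of -0.53 to 0.21. Slc1a4 (ASCT1), an alanine and serine exchanger, differed by 0.01 (95% interval -0.40 to 0.41).

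The 13 Slc16 genes differed by -0.31 to 0.39, with 0 called by limma and 1 at an unadjusted p under 0.05. Slc16a1 (MCT1), which moves lactate and pyruvate either way, measured 4.08, 3.94 and 3.98 in KO and 3.85, 3.98 and 4.16 in WT, a difference of 0.01 (95% interval -0.27 to 0.28) at a low signal. Slc16a3 (MCT4), the lactate exporter of glycolytic cells, measured 5.98, 6.09 and 6.12 in KO and 6.10, 6.21 and 5.89 in WT. Its group means were 6.06 in KO and 6.07 in WT. Slc16a6, whose product exports ketone bodies from liver cells in zebrafish, measured 6.83, 6.81 and 6.58 in KO and 6.32, 7.11 and 7.03 in WT (difference -0.08, adjusted p = 0.912). Slc16a13, a less studied member, differed by 0.07 (95% interval -0.39 to 0.52).

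Some carriers differed widely between replicate arrays of 1 genotype. The range over 3 arrays exceeded 0.5 log2 units for 20 of the 73 genes in KO and for 12 in WT. The median SD was 0.18 in KO and 0.16 in WT for the transporters, and 0.15 and 0.16 for all genes. Both arrays numbered 1 were the lowest of their genotype for 7 genes, Slc2a1, Slc2a6, Slc3a2 and Slc38a1 among them, and the highest of their genotype for 21 genes, including Slc27a2, Slc43a1 and Slc7a6. The counts of wide ranges and of lowest or highest arrays were not made over all genes. They therefore do not set the transporters apart from other genes. Genes of the immediate early and handling stress list (15 of 16 measured) summed to 20390, 25557 and 26318 in KO replicates 1 to 3, and to 17536, 20764 and 18513 in WT replicates 1 to 3. The array numbered 1 was the lowest of each genotype in this sum. The part of these gene groups in the transporter values was not tested.

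**Figure D3:**
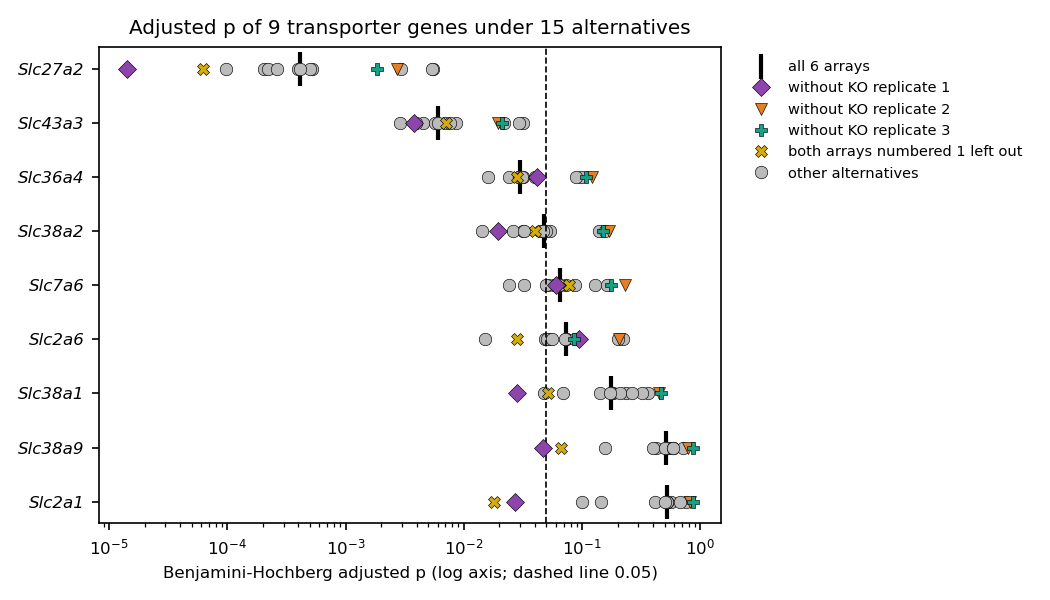
Adjusted p of the 9 transporter genes that passed the test with all 6 arrays or under at least 1 of 15 alternatives, on a log axis with the threshold of 0.05 dashed. Slc27a2 and Slc43a3 stay left of the line throughout, Slc36a4 and Slc38a2 cross it, and Slc2a1, Slc38a1 and Slc38a9 pass it only without KO replicate 1, with array weights or with both arrays numbered 1 left out.

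Since the series asks about MYC repression, the transporters' start regions were read for the E-box. Myc itself measured 9.69, 8.37 and 8.61 in KO, against 5.90, 5.92 and 6.20 in WT (log2 difference 2.88, limma adjusted p = 0.00289). RefSeq's table held 67 start windows for 54 of the 73 transporters. CACGTG occurred in the 250 bases before the start in 10 of the 67 windows (14.9%), against 6.02% of all 32851 windows. Differences in share between transporter windows and all windows were not tested, for this motif or those below. Some genes have several windows, and transporters without a window could not be read. The windows that hold it are printed here, 5′ to 3′ on the gene's strand (GRCm38.p6), with the E-box in capitals.
Slc16a1 (chr3:104638447-104638486, plus strand): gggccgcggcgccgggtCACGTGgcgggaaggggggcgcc
Slc16a12 (chr19:34747546-34747578, minus strand): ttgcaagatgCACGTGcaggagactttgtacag
Slc1a6 (chr10:78780447-78780486, plus strand): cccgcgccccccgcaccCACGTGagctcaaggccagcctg
Slc1a7 (chr4:107968329-107968368, plus strand): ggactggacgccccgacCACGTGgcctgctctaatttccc
Slc27a1 (chr8:71570375-71570414, plus strand): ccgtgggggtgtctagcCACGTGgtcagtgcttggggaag
Slc36a1 (chr11:55204292-55204331, plus strand): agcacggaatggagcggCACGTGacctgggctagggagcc
Slc38a5 (chrX:8271334-8271373, plus strand): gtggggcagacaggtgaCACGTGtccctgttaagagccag
Slc38a7 (chr8:95853503-95853542, minus strand): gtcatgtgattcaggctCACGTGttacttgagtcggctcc
Slc43a1 (chr2:84840242-84840281, plus strand): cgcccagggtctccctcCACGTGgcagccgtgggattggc
Slc7a14 (chr3:31310366-31310405, minus strand): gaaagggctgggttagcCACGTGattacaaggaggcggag
Of these 10 genes, 0 were called by limma, and their differences ran from -0.14 for Slc16a12 to 0.76 for Slc43a1. Slc16a1 and Slc16a12 gave low signals, with both group means below the 25th percentile of all genes' mean levels, 4.58. A change would be hard to see there, so the lack of a call does not show an unchanged level. Slc16a1, Slc36a1 and Slc38a7, a lysosomal glutamine exporter, differed by 0.01, -0.01 and -0.04. Slc1a6, Slc7a14, Slc16a12, Slc38a5 and Slc38a7 are shown for the motif alone and fall outside the rule for named genes, as does Slc1a2 below.

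The composite ETS and IRF element, the kind of site where IRF8 binds beside PU.1, occurred in 3 of the 67 windows (4.48%), against 2.30% of all windows. It is in capitals in the following lines.
Slc1a2 (chr2:102706247-102706290, plus strand): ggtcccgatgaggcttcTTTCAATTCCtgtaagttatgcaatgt
Slc7a1 (chr5:148392907-148392950, minus strand): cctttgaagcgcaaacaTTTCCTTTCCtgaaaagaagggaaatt
Slc7a7 (chr14:54409654-54409697, minus strand): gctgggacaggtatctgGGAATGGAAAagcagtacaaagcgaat
Slc1a2, Slc7a1 and Slc7a7 differed by -0.10, 0.09 and -0.25, and none passed the test. The interferon response element occurred in 0 of the 67 transporter windows and in 2.98% of all windows. The amino acid response element occurred in 3 of the 67 (4.48%), against 3.44% of all windows, and 2 of these 3 belonged to Slc7a7. For Slc7a11, a known target of ATF4, the window held it in both orientations, with the copy in capitals on each line.
Slc7a11 (chr3:50443654-50443696, minus strand): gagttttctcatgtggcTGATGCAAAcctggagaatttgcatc
Slc7a11 (chr3:50443636-50443678, minus strand): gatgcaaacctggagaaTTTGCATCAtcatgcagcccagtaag
Slc7a7 (chr14:54418060-54418102, minus strand): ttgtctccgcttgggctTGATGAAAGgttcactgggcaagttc
Slc7a7 (chr14:54417920-54417952, minus strand): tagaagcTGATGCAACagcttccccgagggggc
Slc7a11 differed by -0.01 (limma adjusted p = 0.986) and Slc7a7, as above, by -0.25.

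Among genes that act beside the carriers, the largest call was a rise of Emb. Of 10 partners and regulators, 1 rose and 3 fell (median difference -0.04). Over all genes 2.30% were called higher and 2.08% lower. This list and those below were chosen with earlier results of these data known, so their counts are not an unbiased rate. Emb, which encodes embigin, a chaperone that brings MCT proteins to the surface, measured 9.96, 10.07 and 10.40 in KO, against 7.88, 6.80 and 7.83 in WT. Every KO array was above every WT array, and Emb rose 6.23-fold (log2 difference 2.64, SE 0.29, limma adjusted p = 0.00279) and passed under all 15 alternatives. Bsg, the other MCT chaperone, named after its values were seen, differed by 0.09 (adjusted p = 0.912).

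Cd36, a surface receptor that binds and takes up long-chain fatty acids, measured 3.73, 3.85 and 3.64 in KO, against 4.63, 4.86 and 5.25 in WT. It fell by 1.17 on the log2 scale (SE 0.17, limma adjusted p = 0.00852) to low signals, the opposite direction to Slc27a2. Arrdc4, an arrestin that promotes removal of GLUT1 from the surface, measured 6.38, 5.95 and 5.70 in KO, against 7.72, 7.19 and 7.09 in WT. Its fall was 2.50-fold (adjusted p = 0.0178), and without KO replicate 2 or 3 or WT replicate 2 it was lost (adjusted p up to 0.0816). Slc15a3, a lysosomal carrier of peptides and histidine, was 2.01-fold lower in KO (adjusted p = 0.0459), and the call was lost without any of the 3 KO arrays or without WT replicate 2 or 3 (highest adjusted p 0.156).

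Among glucose and lactate enzymes, Ldhb was the one call. Of 16 measured genes of this list, 0 rose and 1 fell by limma (median 0.19, 4 at an unadjusted p under 0.05). Ldhb, the lactate dehydrogenase subunit that favours lactate use, measured 5.60, 5.89 and 5.40 in KO, against 7.34, 7.74 and 8.20 in WT. The groups were far apart, and Ldhb was 4.38-fold lower in KO (log2 difference -2.13, SE 0.23, limma adjusted p = 0.00260), under all 15 alternatives. Ldha, the other main subunit, named after its values were seen, measured 9.07, 9.0 and 9.58 in KO and 8.97, 8.69 and 8.64 in WT (difference 0.45, adjusted p = 0.269).

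**Figure D4:**
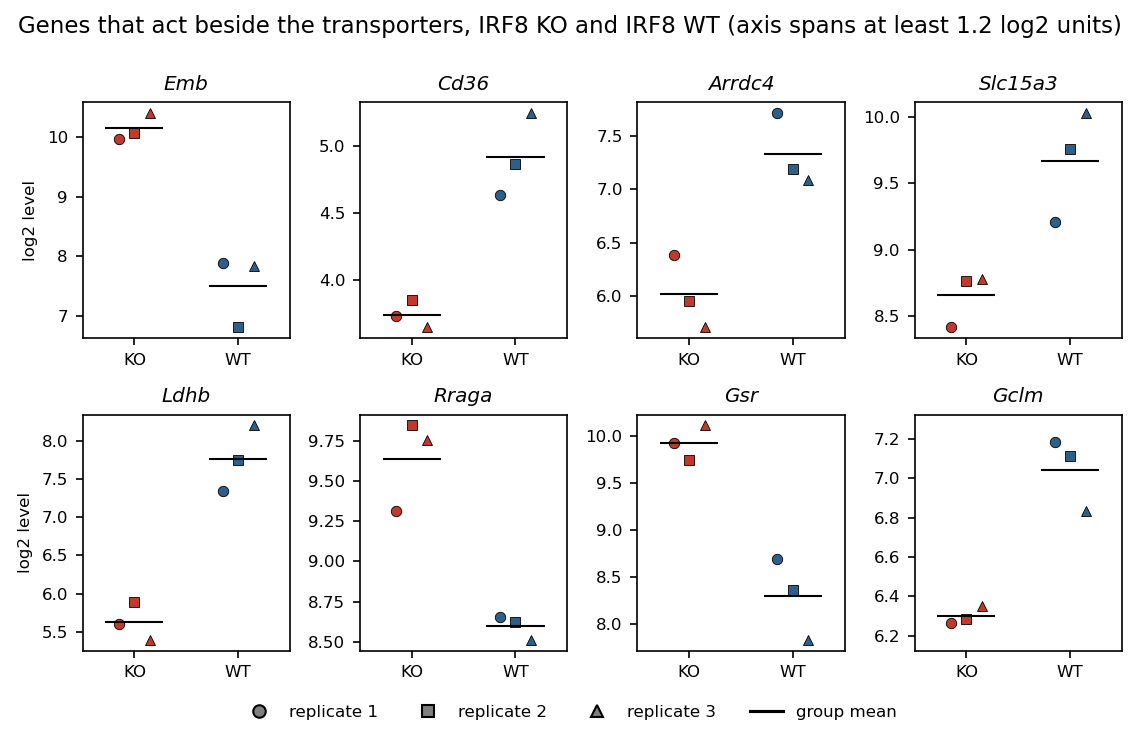
Log2 levels of 8 genes that act beside the transporters, in the 3 IRF8 KO arrays (left in each panel) and the 3 IRF8 WT arrays (right), with a line at each group mean. Emb, Rraga and Gsr are higher and Cd36, Arrdc4, Slc15a3, Ldhb and Gclm lower in KO, with no overlap between the genotypes.

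Fatty acid activation and handling genes gave 0 calls by limma among 22 measured (median -0.08, 6 at an unadjusted p under 0.05), while Slc27a2 in the same pathway rose. Their largest differences belonged to Acadm, a dehydrogenase of fatty acid oxidation, at 0.94 (adjusted p = 0.0711) and to Dgat1, which makes triglyceride, at 0.60 (adjusted p = 0.266). Without KO replicate 1 both passed the test. Acadm also passed with both arrays numbered 1 left out, among bright genes alone, with a replicate block and with array weights. Array weights gave its lowest adjusted p over the 15 alternatives, 0.0198, and its highest was 0.231. Dgat1 passed in 1 of the 15, and its highest adjusted p was 0.584.

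Amino acid sensing and use showed few calls. In the lysosomal mTORC1 list, 1 of 34 measured genes rose and 0 fell by limma (median -0.05, 8 at an unadjusted p under 0.05). Rraga, a GTPase that docks mTORC1 on the lysosome, measured 9.31, 9.85 and 9.76 in KO, against 8.65, 8.62 and 8.51 in WT, a 2.06-fold rise (adjusted p = 0.0106) that was lost without KO replicate 3 and without WT replicate 3 (adjusted p up to 0.0522). The amino acid shortage response, which holds inducers of Slc38a2 and Slc7a11, had 0 calls by limma among 20 measured genes (median 0.12, 6 at an unadjusted p under 0.05). Atf3 had its largest difference, 1.46 (adjusted p = 0.156), and its levels of 11.17, 12.24 and 12.26 in KO and 9.43, 10.85 and 11.01 in WT left the array numbered 1 lowest in each genotype. Atf3 passed without KO replicate 1 (adjusted p = 0.0464), with both arrays numbered 1 left out (0.00276) and with array weights (0.0457), and over all 15 alternatives its adjusted p ran from 0.00190, with a replicate block, to 0.410, without KO replicate 2. Cebpb differed by -0.89 (adjusted p = 0.0909), and passed with array weights and with a replicate block. These were 2 of the 15 alternatives, and its highest adjusted p was 0.274.

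Of 13 glutamine and glutathione genes, 1 rose and 1 fell (median 0.11). Gsr, the reductase that regenerates glutathione, measured 9.93, 9.75 and 10.11 in KO, against 8.69, 8.36 and 7.83 in WT, a 3.11-fold rise (SE 0.22 on the log2 scale, limma adjusted p = 0.00711) that held under all 15 alternatives. Gclm, the modifier subunit of the enzyme that starts glutathione synthesis, measured 6.26, 6.28 and 6.35 in KO, against 7.18, 7.11 and 6.83 in WT. It was 1.67-fold lower in KO (adjusted p = 0.0169), and the call was lost without KO replicate 2 or 3, without WT replicate 1 or 2, and with both arrays numbered 1 left out (highest adjusted p 0.0810). Among 12 genes of arginine, tryptophan and branched-chain amino acid breakdown, 0 rose and 1 fell by limma (median -0.13, 4 at an unadjusted p under 0.05): Bckdhb, a subunit of the branched-chain keto acid dehydrogenase, was 1.49-fold lower (adjusted p = 0.0398), lost without KO replicate 2 or 3 or any WT array (highest adjusted p 0.160).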

How the data were processed

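The deposited table holds 1 log2 value per probe set and array for 34760 probe sets. That these deposited values are log2 was judged from their range. The sources used here do not give the authors' background correction, summarisation or normalization; per the labels' protocols, RNA was amplified with NuGen PICO SL and labelled by the Affymetrix protocol. Array medians of 5.53 to 5.56 hide any shift common to all genes. Of the probe sets, 21640 had 1 symbol in the platform annotation, 1321 had several and 11799 were not listed. The probe set with the highest mean stood for each of 19937 genes. IRF8 KO was compared with IRF8 WT by limma 3.58.1 in R 4.3.3 (lmFit and eBayes, no covariates, no filter, two-sided, Benjamini-Hochberg over all genes, threshold 0.05). The fit was checked on simulated arrays with independent noise of equal spread, which does not cover deviations shared by arrays. Exact permutation used all 20 relabellings. The number of arrays limits the precision. Groups and replicate numbers come from the sample titles.

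Named transporters were all called members, the 2 of each family with the highest mean, and a fixed list of 25 carriers. In each pathway list, up to 4 called genes were named, or else the 2 with the largest difference. The members and lists were chosen with earlier results of these data known. Alternatives were quantile normalization, median centring, bright genes alone, the mean of probe sets, a robust variance trend, array weights (through statmod 1.5.0), RefSeq-matched probe sets, leaving out each array or both arrays numbered 1, and a block for the titles' replicate numbers. For the pathway genes they were added after the data were seen. Promoter windows come from RefSeq (GRCm38.p6). Figures used matplotlib 3.10.9.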

Additional observations from a re-analysis of the deposited data

How the results depend on the processing

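Slc27a2 and Slc43a3 kept their direction and passed the test under all 15 alternatives, with differences of 3.57 to 4.13 and 1.01 to 1.25. Slc36a4 passed in 11 and Slc38a2 in 10 of the 15, with unchanged direction. Of the 69 uncalled transporters, 64 were called under none of the 15 and 5 (Slc2a1, Slc2a6, Slc7a6, Slc38a1 and Slc38a9) under at least 1. Against 3 higher and 1 lower transporter with all arrays, leaving out single arrays gave 2 to 6 higher and 0 to 1 lower; 6 came without KO replicate 1, and 0 lower without KO replicate 2 or 3 or WT replicate 2 or 3. Quantile normalization, array weights, and omission of both arrays numbered 1 each gave 2 lower genes. With the replicate number as a block, 3 were lower: Slc36a4, Slc2a6 and Slc7a6. Whether the replicate numbers pair the samples is not stated in the labels. Same-numbered arrays deviated together with correlations of 0.38, 0.097 and 0.25 for numbers 1 to 3. Of the 6 arrays, 5 followed their own number best, all but KO replicate 2. This is a hint from the data and not the design. The block moved the calls over all genes to 1362 from 874. Among the 25 uncalled named transporters, 11 changed sign in at least 1 alternative while uncalled. The settings that leave out arrays or keep bright genes alone use fewer values. Over all genes the calls numbered 1499 without KO replicate 1 and 451 without KO replicate 2. The cause of the changes between settings was not tested. With 3 arrays a group, differences well under 1 log2 unit were often not detectable, and low signals hide falls.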
